A study of Homo sapiens with 4 samples.

Results

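The nuclear genes that encode the subunits of the mitochondrial respiratory chain and ATP synthase were compared between HCT116 cells given an anti-GAA antisense oligonucleotide (ASO) and cells given a control ASO. A gene was taken when it is protein-coding and its symbol, looked up by Ensembl identifier, starts with NDUFA, NDUFB, NDUFC, NDUFS, NDUFV, UQCR, COX4 to COX8 or ATP5, or is SDHA, SDHB, SDHC or SDHD. Assembly factors named NDUFAF were left out. This rule found 90 genes among the 63677 rows of the count table. They were 38 of complex I, 4 of complex II, 9 of complex III, 19 of complex IV and 20 of complex V. NDUFA4 was placed in complex IV, to which its protein belongs.

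HCT116 is an established human colorectal cancer line. RNA-seq was made from 4 libraries, 2 of cells transfected with the anti-GAA ASO and 2 of cells transfected with a control ASO, for 48 h according to the labels, although the study's methods give another duration for ASOs. The anti-GAA ASO is complementary to RNAs with tandem GAA repeats and carries a DNA stretch through which RNase H can degrade them, and the comparison asked which RNAs change when it is present. The labels number the libraries of each condition 1 and 2, and the anti-GAA and control libraries of the same number also share a number in their titles. They do not say whether such a number marks a shared culture or day. Nothing in them says that the replicates were separate cultures. The study's methods speak of duplicate experiments for this RNA-seq and do not say how they were separated. The p of a test therefore measures only the spread between these libraries.

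The respiratory chain moves electrons from NADH and succinate to oxygen and pumps protons across the inner mitochondrial membrane, and ATP synthase uses the proton gradient to make ATP. Complex I oxidizes NADH, complex II oxidizes succinate, complex III passes electrons from ubiquinol to cytochrome c, complex IV reduces oxygen and complex V is the ATP synthase. Most subunits are encoded in the nucleus, translated in the cytosol and imported, while a few hydrophobic core subunits are encoded in mitochondrial DNA. Cultured colorectal cancer lines use both glycolysis and respiration.

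Because the ASO is directed at GAA repeats, the subunit genes were first searched for runs of GAA in any frame, and the sequences are shown to let a reader see what the ASO could meet in these RNAs. No tested subunit gene carried a run of 12 nt or more in its longest annotated transcript, against 2.54% (374 of 14751) of the tested genes with a transcript. The longest run in an exon was 11 nt, in the coding sequence of ATP5ME, a small membrane subunit of ATP synthase. Over the whole gene body, introns included, 3 of 83 tested subunit genes (3.61%) had a run of at least 12 nt, against 11.3% of tested genes. The subunit genes also span less DNA, with a median of 12362 nt against 26924 nt. These genes were NDUFA12, NDUFB3 and NDUFA10, which encode accessory subunits of complex I, and the untested read-through row NDUFC2-KCTD14 had 17 nt in an intron. Intron here means any position within the annotated span of a gene and outside its annotated exons. Whether the canonical transcript covers these positions was not checked. The intron of NDUFA12 held adjoining runs of 16, 74 and 19 nt, and only 7 of the 14751 tested genes had a run longer than 74 nt. The sequences below were read from GRCh38 on the strand of the gene, 5′ to 3′, with the GAA runs in capitals.
NDUFA12, intron, chr12:94926806-94926938, minus strand: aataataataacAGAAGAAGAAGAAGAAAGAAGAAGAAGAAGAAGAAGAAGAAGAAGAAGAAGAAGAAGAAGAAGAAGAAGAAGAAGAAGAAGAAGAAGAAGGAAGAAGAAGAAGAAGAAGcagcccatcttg
NDUFB3, intron, 15-nt run at chr2:201078309-201078323, plus strand: aaaaaatAAGAAGAAGAAGAAGttaggagc
NDUFA10, intron, 14-nt run at chr2:239904254-239904267, minus strand: aaagaaaaAAGAAGAAGAAGAAaggaagag
ATP5ME, coding exon, 11-nt run at chr4:673343-673353, minus strand: cagcagaagAGAAGAAGAAGcaggatgaac

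Promoter windows of RefSeq (GRCh38.p14, 250 bases before to 50 after each start) were searched on both strands for 2 short letter strings named for factors that are known to act on many of these genes. The YY1 letters AAGATGGCG stood in 10 of 84 windows of the subunit genes (11.9%), against 3.3% of the windows of all tested genes and 1.75% of all windows. The ETS letters CCGGAAG stood in 22 of 84 windows (26.2%), against 16.5% and 10.3%. The YY1 letters belonged to 9 genes and in 8 of them began 10 to 25 bases after the start, as in the SDHB, NDUFS7 and UQCRC1 windows below. The YY1 letters include ATG, and their overlap with start codons was not checked. A match of letters is a description and not a site of binding. The matched letters are in capitals.
SDHB, chr1:17054003-17054032, minus strand: gtcaggagccAAGATGGCGgcggtggtcgc
NDUFS7, chr19:1383914-1383943, plus strand: ggccgaggccAAGATGGCGgtgctgtcagg
UQCRC1, chr3:48609604-48609633, minus strand: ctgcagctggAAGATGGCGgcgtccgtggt

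The 4 libraries held between 10538284 and 17894953 counts on genes, and the subunit genes together took 3.27% and 3.03% of the counts with the anti-GAA ASO (replicates 1 and 2) and 3.10% and 2.96% with the control ASO. All 37 rows on mitochondrial DNA were listed at 0 in every library, so the 13 subunits encoded there were not measured. Of 7 epithelial markers chosen for this line, 5 reached 1 CPM (counts scaled for library size), namely EPCAM, KRT8, KRT18, KRT19 and CDH1, while CDH17 and VIL1 did not, and the summed level of the list ran from 2552 to 2893 CPM. With the anti-GAA ASO, 4 of those 5 markers lay lower with no overlap of the groups, against 16.9% of all tested genes, while KRT19, the most abundant, had a log2 fold change of 0.26, above 0 in both pairs. Their part in the values below was not tested. Of 8 markers of blood, fibroblasts and endothelium only COL1A1 reached 1 CPM, 4 were at 0, and the list summed to 10.5 and 13.5 CPM in the anti-GAA libraries against 12.4 and 15.6 CPM in the control libraries. In bulk RNA, a change in the number of cells and a change in RNA per cell cannot be told apart.

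Levels of different genes were compared as CPM per kb of the canonical transcript, averaged over the 4 libraries. The highest was COX4I1, the regulatory subunit 4 of complex IV, at 2559 CPM per kb and between 2090 and 3338 in the libraries, followed by the complex III hinge protein UQCRH at 2464 (2276 to 2666). These ranges overlap, so the order of the first 2 was within the spread of the libraries. COX7C at 1534 (1414 to 1682), NDUFB9 at 1455, COX7A2 at 1315 and COX5B at 1298 came next, and their ranges overlap as well. The lowest tested genes on this scale were COX6B2 at 0.41, a testis isoform, COX8C at 1.21, UQCRB at 1.98 and NDUFV2 at 2.11 CPM per kb. UQCRB and NDUFV2 encode constitutive subunits. The canonical transcript of UQCRB is annotated with 8459 nt, which lowers its value on this scale, and the NDUFV2 row held only 103 counts in all libraries while the row of its pseudogene NDUFV2P1 held 2294.

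Of the 90 genes, 83 passed the filter on low counts. The 7 that did not were the read-through rows NDUFC2-KCTD14 and ATP5MF-PTCD1, both at 0 counts in all libraries, and the paralogs COX4I2, COX6A2, COX7A1, COX7B2 and NDUFA4L2. COX4I2, the lung and hypoxia isoform of subunit 4, had 0 counts in both anti-GAA libraries and 1 and 3 in the control libraries. COX6A2, the heart and muscle isoform of subunit 6A, had 0 counts in 3 libraries and 1 in control replicate 2, and COX7A1, the muscle isoform of subunit 7A, had 1 and 3 counts with the anti-GAA ASO and 1 in each control library. Their ubiquitous counterparts were expressed at 319 to 469 CPM with the anti-GAA ASO for COX6A1 and at 575 and 670 CPM for COX7A2. In each of these pairs the widely expressed isoform held nearly all counts.

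No subunit gene passed an adjusted p of 0.05 in either direction by edgeR's quasi-likelihood test with Benjamini-Hochberg adjustment, in which 0 of 15116 genes (0%) passed. At an unadjusted p under 0.05 the same test gave 2 subunit genes higher with the anti-GAA ASO, ATP5MC2 and SDHA, and 0 lower, against 1.02% of all tested genes higher and 3.46% lower. DESeq2 also called 0 subunit genes, with 5 of all genes (0.0331%) called lower and none higher. Without adjustment, at p under 0.05, DESeq2 gave 1 subunit gene higher (0.662% of all genes) and 0 lower (2.1%). The lowest adjusted p of any subunit gene was 0.9965 by edgeR. The values below therefore describe directions and sizes, and with 2 libraries against 2 the smallest two-sided p of an exact permutation test of a single value would be 0.333.

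The subunit genes lay slightly above the control on the whole. Of the 83, 70 had a log2 fold change (anti-GAA over control, from edgeR) above 0 and 13 below, or 84.3% above against 51.6% of all tested genes. Their median was 0.145, with quartiles of 0.034 and 0.25, while the median of all tested genes was 0.013. TMM scaling assumes that most genes do not change. Scaling to total counts in its place moved the split to 48 above and 35 below (57.8%, against 39% of all genes) and the medians to 0.047 and −0.081. Such a change of scaling shifts all genes by nearly the same amount. The gap of 0.13 between the medians could therefore hardly change, and its staying the same is no test of it. Leaving out 1 library moved the median to 0.079 without anti-GAA replicate 1, 0.079 without control replicate 2, 0.21 without anti-GAA replicate 2 and 0.22 without control replicate 1. Their transcripts are shorter, with a median longest transcript of 1587 nt against 3407 nt, and the 4073 other tested genes with a longest transcript between the quartiles of the subunit genes had a median of 0.067, with 2382 above 0. With offsets that remove the trend of the counts on transcript length and GC, the subunit genes had a median of 0.14 and all genes 0.058. The gap between them was thus smaller, and the part of transcript length in it was not tested further.

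**Figure D1:**
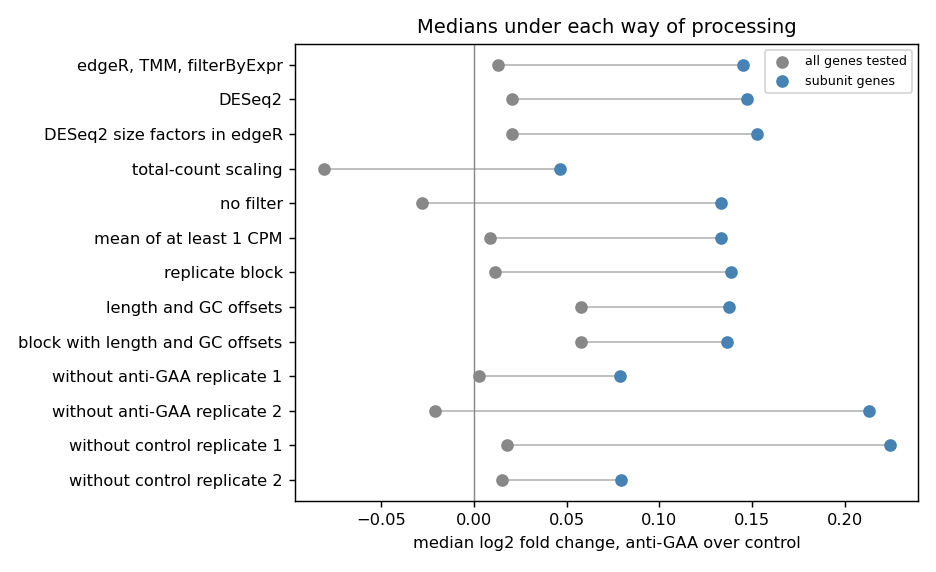
Median log2 fold change (anti-GAA over control) of the tested subunit genes, in blue, and of all genes tested, in grey, under each way of processing the counts. The blue point lies to the right of the grey one in every row, and the distance ranges from 0.064 without control replicate 2 to 0.23 without anti-GAA replicate 2. Rows that change only the scaling factors shift both points by nearly the same amount.

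**Figure D2:**
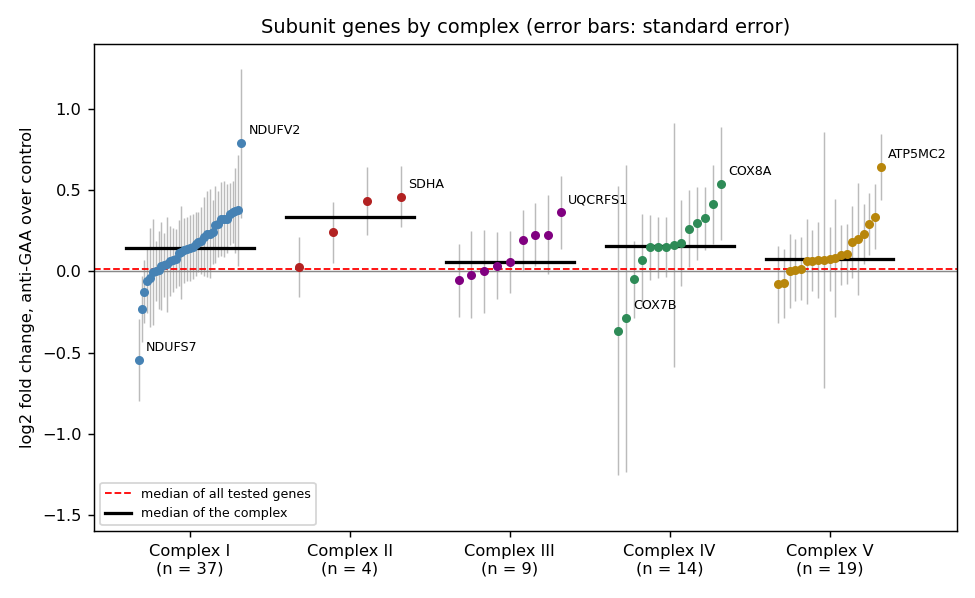
Log2 fold change of each tested subunit gene (anti-GAA over control) with its standard error from edgeR, sorted within complexes I to V, with the median of each complex as a black line and the median of all tested genes as a dashed line. The medians run from 0.060 for complex III to 0.34 for complex II, an order that changes with the library left out, and most error bars cross 0.

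By pair of libraries with the same number, the median difference in log2 CPM (anti-GAA minus control, prior count 2) was 0.12 for replicates 1 and 0.15 for replicates 2. The genes above 0 numbered 61 of 83 in the first pair and 60 in the second, and 44 (53.0%) were above 0 in both, against 31.8% of all tested genes. Only 6 were below 0 in both pairs, against 30% of all genes. The size of the difference in one pair said little about the other, with Pearson's r of 0.11 and Spearman's rho of 0.045 across the 83 genes, which share the 4 libraries, and 0.40 and 0.32 across all tested genes. The groups did not overlap, with both anti-GAA libraries above both controls, for 25 subunit genes, against 15.5% of all tested genes. Both anti-GAA libraries lay below both controls for 2 subunit genes, NDUFS7 and NDUFV1, against 16.9% of all genes.

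**Figure D3:**
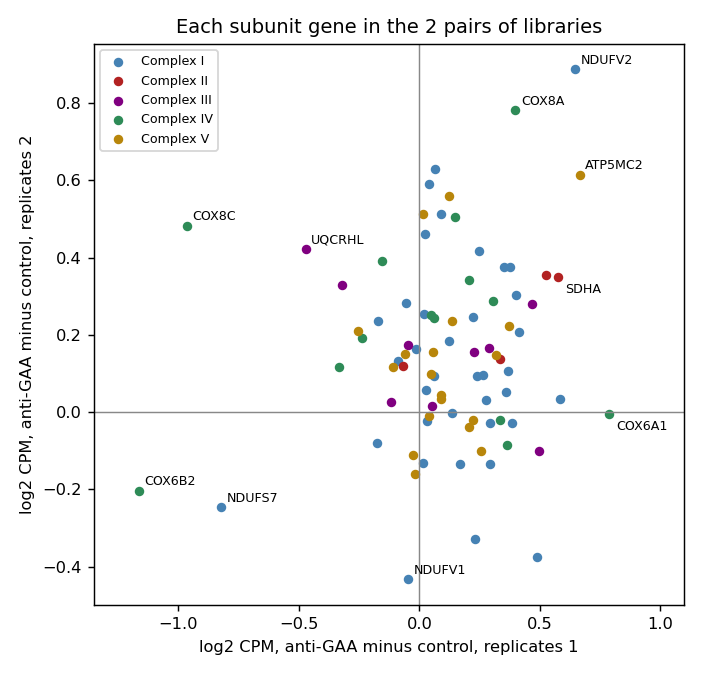
Difference in log2 CPM (anti-GAA minus control) of the 83 tested subunit genes in the libraries numbered 1 (horizontal axis) and 2 (vertical axis), coloured by complex. ATP5MC2 and SDHA lie above 0 on both axes, NDUFS7 below 0 on both, and 44 of the 83 points are in the upper right part.

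Complex I had a median of 0.145 over 37 tested genes, with 31 above 0 and 6 below, and medians of 0.17 and 0.096 in the pairs. Total-count scaling lowered the median to 0.047, with 23 above and 14 below. The groups were apart for 10 genes with anti-GAA higher and 2 with anti-GAA lower, against 15.5% and 16.9% of all tested genes. Without anti-GAA replicate 1 the median was 0.038 and without control replicate 2 it was 0.064, while it was 0.26 without anti-GAA replicate 2 and 0.28 without control replicate 1. By arm, the 20 accessory subunits of the membrane arm, which surround the proton-pumping core, were all above 0 with TMM scaling, with a median of 0.16, and 14 of them were above 0 in both pairs. With total-count scaling 13 were above 0 and 7 below, and without anti-GAA replicate 1 it was 11 and 9, at medians of 0.060 and 0.059. Without control replicate 2 the median was 0.071, and it was 0.29 without anti-GAA replicate 2 or control replicate 1. The 9 accessory subunits of the matrix arm gave 6 above and 3 below, with a median of 0.19. That median was 0.090 with total-count scaling, −0.0024 without anti-GAA replicate 1, with 4 above and 5 below, and 0.29 without anti-GAA replicate 2. The 7 core subunits, which carry the flavin and the iron-sulfur clusters, had a median of 0.0038, with 4 above and 3 below, but it was −0.092 with total-count scaling, 0.14 with length and GC offsets and between 0.028 and 0.20 with 1 library left out, the highest without control replicate 1. These differences between the arms were not tested.

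Among the core subunits, NDUFS7 (ENSG00000115286, chr19:1383527-1395589 on GRCh38, plus strand), which lies at the quinone-binding site, gave 11.9 and 13.7 CPM with the anti-GAA ASO, against 21.2 and 16.2 CPM with the control. Both anti-GAA libraries lay below both controls, at a mean of 12.8 ± 1.23 (SD, n = 2) against 18.7 ± 3.52 (SD, n = 2). The log2 fold change was −0.54 with a standard error of 0.25, and the edgeR p was 0.069 before adjustment and 0.9965 after it. NDUFV1, which binds NADH and flavin, gave 171 and 137 CPM against 177 and 185 CPM, a log2 fold change of −0.23, and the gap between its groups was small beside the spread of the anti-GAA libraries. NDUFV2, its partner at the tip of the arm, had the largest value of the complex at 0.79 ± 0.46 (SE), from only 2.63 and 1.97 CPM against 1.63 and 1.00 CPM. Reads of NDUFV2 and NDUFV2P1 cannot be told apart with certainty. The pseudogene row gave 410 and 732 counts with the anti-GAA ASO and 634 and 518 with the control. These counts are not scaled, and the libraries held 10538284 and 17894953 counts in all with the anti-GAA ASO and 15347298 and 15924742 with the control. The part of this copy in the NDUFV2 value was not tested. NDUFS1, which holds iron-sulfur clusters of the electron path, was at 0.0038 ± 0.19 (SE), NDUFS3 at −0.0041 ± 0.33 and NDUFS8 at 0.15 ± 0.20. The signs of NDUFS1 and NDUFS3 changed with the scaling or the method.

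NDUFA12 (ENSG00000184752, chr12:94895297-95003748 on GRCh38, minus strand) is the accessory subunit gene whose annotated span holds, outside its exons, the long GAA repeat printed above. NDUFA12 gave 200 and 221 CPM with the anti-GAA ASO against 157 and 170 CPM with the control ASO. The groups did not overlap and the anti-GAA libraries were the higher ones, at 211 ± 14.5 against 164 ± 9.36 CPM (mean ± SD, n = 2). The log2 fold change was 0.37 ± 0.19 (SE) with an unadjusted edgeR p of 0.094 and an adjusted p of 0.9965. It was 0.35 in the first pair and 0.38 in the second. The other subunit genes with an intronic run, NDUFB3 and NDUFA10, had log2 fold changes of 0.22 ± 0.24 and 0.041 ± 0.20 (SE). NDUFB3 gave 265 and 241 CPM against 261 and 175 CPM, and NDUFA10 gave 124 and 109 CPM against 121 and 105 CPM, so the groups overlapped in both genes. The counts are of reads in annotated genes, and the level of the intronic RNA itself was not measured here. Whether the transcripts that were counted span these runs was not checked.

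Complex II had a median of 0.34 over 4 genes, and 0.24 with total-count scaling, with pair medians of 0.43 and 0.24. This was the highest median of the 5 complexes in the edgeR fit, but without control replicate 1 it was 0.27, against 0.28 for complex I and 0.29 for complex IV, and in the second pair complex IV stood at 0.25. SDHA (ENSG00000073578, chr5:218303-257082 on GRCh38, plus strand), the flavoprotein that oxidizes succinate, gave 210 and 202 CPM with the anti-GAA ASO, against 141 and 159 CPM with the control. Both anti-GAA libraries were above both controls, at 206 ± 5.28 against 150 ± 12.7 CPM (mean ± SD, n = 2), a log2 fold change of 0.46 ± 0.19 (SE) with an edgeR p of 0.045 before and 0.9965 after adjustment. Rows of SDHA pseudogenes held 7.10% as many counts as SDHA. SDHC, a membrane anchor that helps to bind ubiquinone, gave 65.6 and 70.9 CPM against 45.5 and 55.4 CPM, a log2 fold change of 0.44 ± 0.21. SDHB, the iron-sulfur protein, gave 529 and 460 CPM against 420 and 418 CPM, a log2 fold change of 0.24 ± 0.19. The groups were apart in these 3 genes, all with anti-GAA higher, against 15.5% of all tested genes. SDHD, the other membrane anchor, was at 211 and 224 CPM against 222 and 207 CPM, with overlapping groups and a log2 fold change of 0.025 ± 0.18, which was −0.067 with total-count scaling.

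**Figure D4:**
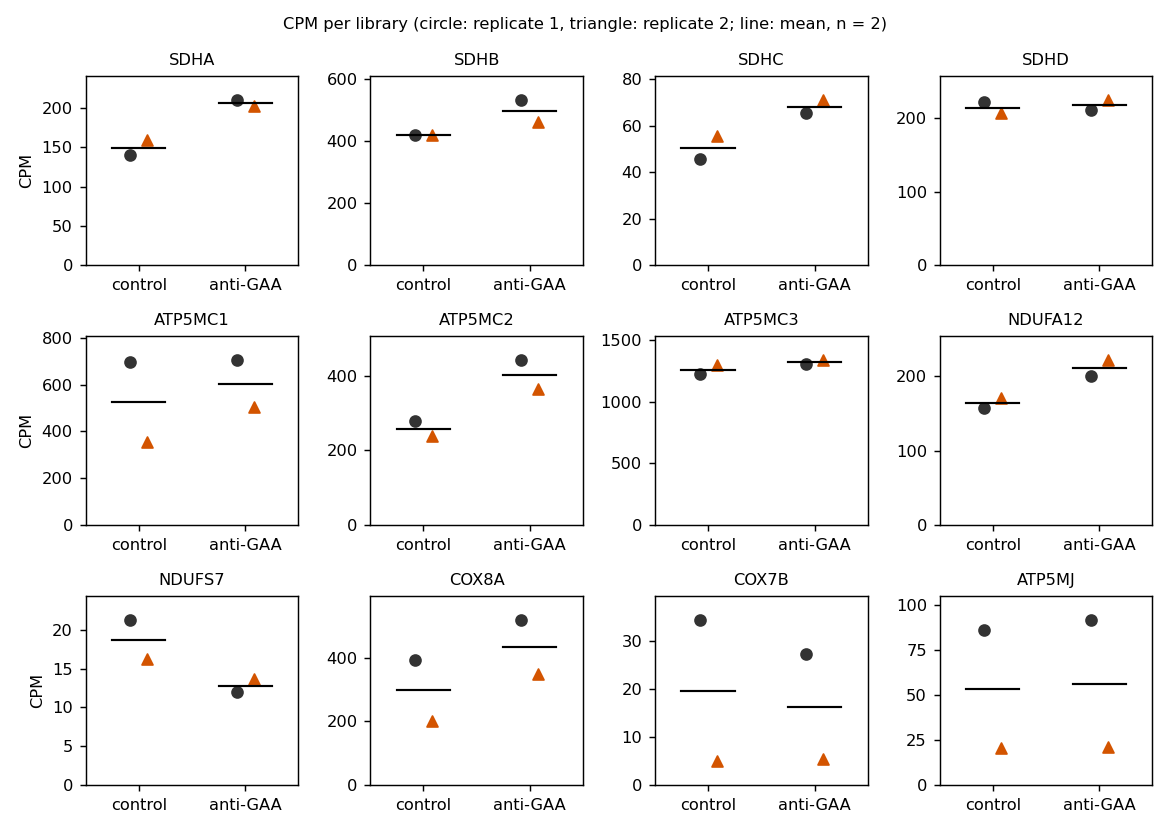
CPM in each library of 12 subunit genes, with the control ASO on the left and the anti-GAA ASO on the right of each panel, circles for replicate 1, triangles for replicate 2 and a line at the mean of the 2 libraries. The groups are apart for SDHA, SDHB, SDHC, ATP5MC2, ATP5MC3, NDUFA12 and NDUFS7, while COX7B and ATP5MJ are separated by replicate and not by ASO.

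Complex III had a median of 0.060 over 9 genes, with 7 above 0 and 2 below, and it turned to −0.031 with total-count scaling and to −0.044 without control replicate 2. Without anti-GAA replicate 2 or control replicate 1 it was 0.16 and 0.17. The pair medians were 0.052 and 0.17. UQCRFS1, the Rieske iron-sulfur protein, gave 193 and 227 CPM with the anti-GAA ASO against 139 and 187 CPM with the control ASO. Its groups were apart by a margin that was small beside their spread, and the log2 fold change was 0.36 ± 0.22 (SE). The core proteins UQCRC1 and UQCRC2, which face the matrix, were at −0.055 ± 0.23 and 0.23 ± 0.19. UQCRC1 gave 194 and 161 CPM against 211 and 158 CPM, so its groups overlapped. UQCRH was at 0.19 ± 0.19 and its near-identical copy UQCRHL at 0.00028 ± 0.26, and reads that match both genes cannot be assigned to one of them with certainty.

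Complex IV had a median of 0.16 over 14 genes, with 11 above 0 and 3 below, and 0.066 with total-count scaling, with 10 above and 4 below. The pair medians were 0.10 and 0.25, and without control replicate 1 the median was 0.29. The groups were apart for 3 genes of the 14, all with anti-GAA higher, against 15.5% of all tested genes. COX8A, a small subunit with a single membrane helix, gave 517 and 349 CPM with the anti-GAA ASO, against 392 and 203 CPM with the control. Replicate 1 was the higher library in both conditions, so the groups overlapped although the anti-GAA library was higher in each pair, by 0.40 and 0.78 on the log2 scale. Its log2 fold change was 0.54 ± 0.35 (SE), and it ranged from 0.14 without control replicate 2 and 0.23 without anti-GAA replicate 1 to 1.09 without control replicate 1. COX6A1 gave 469 and 319 CPM against 271 and 320 CPM, and the difference of 0.41 ± 0.24 came from the first pair, at 0.79, while the second pair gave −0.0048. COX6A1 pseudogene rows held 17.2% as many counts as the gene. COX4I1 gave 2547 and 1595 CPM against 1977 and 1692 CPM, with a log2 fold change of 0.17 ± 0.27, and overlapped between the groups. COX7A2 was at 0.072 ± 0.28, and NDUFA4, which is found with complex IV, at 0.30 ± 0.22.

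Complex V had a median of 0.075 over 19 genes, with 17 above 0 and 2 below. With total-count scaling the median turned to −0.019, with 8 above and 11 below, and without anti-GAA replicate 2 it was 0.14. The groups were apart for 6 genes of the 19, all with anti-GAA higher, against 15.5% of all tested genes. ATP5MC2 (ENSG00000135390, chr12:53632726-53677408 on GRCh38, minus strand) had the smallest p of all subunit genes. It encodes 1 of 3 precursors of the c subunit, the protein that forms the rotating ring of the synthase, and the mature c subunits of the 3 genes are the same. ATP5MC2 gave 440 and 365 CPM with the anti-GAA ASO, against 278 and 238 CPM with the control. The groups did not overlap, at 402 ± 53.4 against 258 ± 27.9 CPM (mean ± SD, n = 2), and the log2 fold change was 0.64 ± 0.21 (SE), with 0.66 in the first pair and 0.61 in the second. The edgeR p was 0.017 before and 0.9965 after adjustment. This outcome changed in the fit with the replicate number as a block, which is given in the closing section. ATP5MC2 pseudogene rows held 4.95% as many counts as the gene.

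The other c subunit genes had smaller log2 fold changes with all libraries in the fit. ATP5MC1 gave 704 and 505 CPM against 697 and 354 CPM, a log2 fold change of 0.20 ± 0.34 (SE), and the replicates within a condition were further apart than the conditions. Without control replicate 1 its value was 0.77, against 0.76 for ATP5MC2, and without control replicate 2 it was −0.21. ATP5MC3, the most abundant of the 3 in CPM, gave 1304 and 1333 CPM against 1225 and 1293 CPM, a log2 fold change of 0.066 ± 0.19, which was −0.029 with total-count scaling. Its groups were just apart, by less than the spread of the control libraries. Per kb of canonical transcript the order was ATP5MC1 at 875, ATP5MC2 at 522 and ATP5MC3 at 498 CPM per kb. In the catalytic head of the synthase ATP5F1A was at −0.072 ± 0.21 and ATP5F1B at 0.18 ± 0.22, the latter between 0.0095 without control replicate 2 and 0.37 without control replicate 1. ATP5F1C, the central stalk subunit, gave 255 and 281 CPM against 234 and 191 CPM, with the groups apart and a log2 fold change of 0.34 ± 0.20. ATP5IF1, which inhibits the reverse reaction, was at −0.080 ± 0.24, from 638 and 463 CPM against 646 and 517 CPM. The 5 genes of the head and central stalk had a median of 0.016, the 4 of the peripheral stalk 0.090 and the 5 small membrane subunits 0.072. With total-count scaling these turned to −0.079, −0.0060 and −0.019. With 1 library left out the head ranged from 0.021 to 0.11 (highest without anti-GAA replicate 2) and the small subunits from 0.039 (without anti-GAA replicate 1) to 0.24 (without anti-GAA replicate 2), while the peripheral stalk ranged from 0.078 to 0.13.

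The libraries numbered 1 and 2 differed from each other at least as much as the conditions did. For 48 of the 83 subunit genes (57.8%) the mean difference between replicates was larger than the mean difference between the ASOs, as it was for 59.2% of all tested genes. COX7B and ATP5MJ stood out. COX7B, a small subunit of complex IV, gave 27.3 and 5.45 CPM with the anti-GAA ASO, against 34.4 and 5.01 CPM with the control. ATP5MJ, a small membrane subunit of ATP synthase, gave 91.2 and 21.1 CPM against 85.7 and 20.6 CPM. In both genes and both conditions replicate 1 was more than 4-fold above replicate 2, and 39 of all 15116 tested genes (0.258%) had replicates that far apart in both conditions in 1 direction. Between the ASOs the log2 fold changes were −0.29 ± 0.94 and 0.072 ± 0.79 (SE). These standard errors hold the difference between replicates, so a difference between the conditions was not detectable in these genes by this fit. By pair the differences were −0.33 and 0.12 for COX7B and 0.090 and 0.034 for ATP5MJ.

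**Figure D5:**
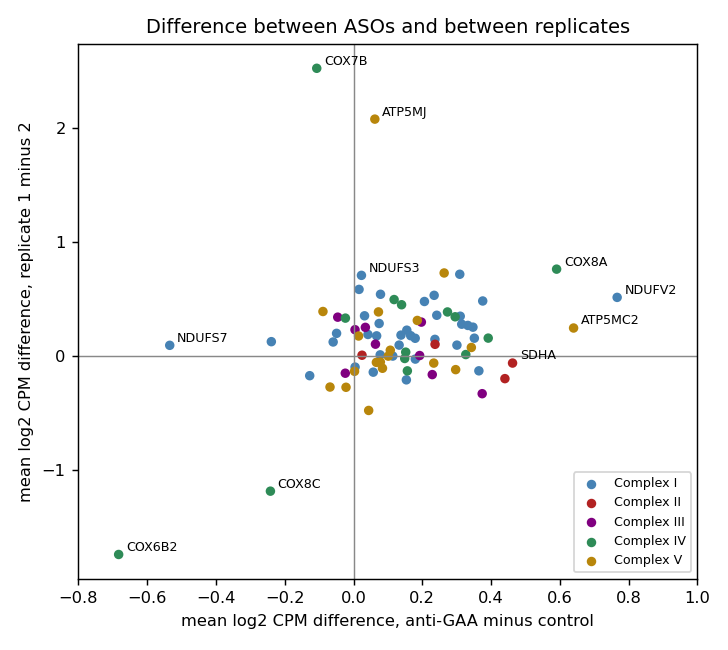
Mean log2 CPM difference of each tested subunit gene between the ASOs (horizontal axis, anti-GAA minus control) and between the replicates (vertical axis, replicate 1 minus 2), coloured by complex. COX7B and ATP5MJ lie far above the rest on the replicate axis, and the scarce COX6B2 and COX8C far below it.

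The other genes of the pathway were taken from lists made by role. Of 50 assembly factors, which build the complexes but stay out of the finished enzyme, 49 were tested, and 0 passed an adjusted p of 0.05 by edgeR or by DESeq2. At an unadjusted p under 0.05 edgeR gave 1 higher and 0 lower, and DESeq2 gave 2 higher and 0 lower, against 1.02% and 3.46% of all tested genes by edgeR and 0.662% and 2.1% by DESeq2. Their median log2 fold change was 0.069, with 32 above 0 and 17 below, and −0.023 with 23 above and 26 below when scaled to total counts. Without control replicate 2 the median was 0.0013 and without anti-GAA replicate 1 it was 0.018, while it was 0.12 without anti-GAA replicate 2 and 0.15 without control replicate 1. The 16 factors of complex I were evenly split, 8 above and 8 below, although NDUFAF3 gave 316 and 238 CPM with the anti-GAA ASO against 186 and 184 CPM with the control, a log2 fold change of 0.58 ± 0.21 with an edgeR p of 0.030 before and 0.9965 after adjustment. The 4 factors of complex II had a median of 0.24, the 6 of complex III 0.15, the 19 of complex IV 0.081 and the 4 of complex V 0.35. FMC1, a factor of complex V, had the highest log2 fold change of the 49, at 0.86 ± 0.39 (SE). It gave 26.8 and 13.5 CPM with the anti-GAA ASO against 13.4 and 8.67 CPM with the control. Its edgeR p was 0.064 before and 0.9965 after adjustment, and its outcome with the block is given in the closing section. CYC1, cytochrome c1 of complex III, whose symbol is outside the rule, gave 1061 and 745 CPM against 805 and 565 CPM, with a log2 fold change of 0.40 ± 0.27, and CYCS, the cytochrome c that carries electrons from complex III to IV, was at 0.099 ± 0.18. Of 12 regulators of mitochondrial biogenesis 11 were tested, 7 above 0 and 4 below with a median of 0.12, but the pair medians were −0.084 (4 of 11 above 0) and 0.17 (9 of 11). Of these, 0 passed an adjusted p of 0.05 by edgeR or by DESeq2 and 0 an unadjusted p under 0.05 by either. ESRRA, a nuclear receptor, had the lowest value, −0.80 ± 0.39, from 1.62 and 2.58 CPM against 3.78 and 3.66 CPM. PPRC1 had the highest of the 11, 0.31 ± 0.20 (SE), and YY1 was at 0.16 ± 0.19. NRF1 was at 0.092 ± 0.25, GABPA, a factor that binds ETS letters, at −0.35 ± 0.32 and TFAM, which packs and transcribes mitochondrial DNA, at −0.12 ± 0.22. PPARGC1A, the coactivator known from muscle and brown fat, was listed at 0 in 3 libraries.

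The values were also read by the letters in the promoter windows. Genes with the ETS letters gave 19 of 21 above 0 with a median of 0.15, and those with the YY1 letters 5 of 9 with a median of 0.11. Among all 83 tested subunit genes 70 were above 0 with a median of 0.145. A difference between the groups was not tested. The YY1 group holds both NDUFS7, at −0.54, and NDUFA9 and NDUFB8, both at 0.38.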

How the data were processed

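RNA-seq of 2 anti-GAA and 2 control libraries of HCT116 was analysed from the values the authors deposited, raw counts of reads per gene, which are whole numbers without normalization. Per the labels, STAR and featureCounts were used with hg19 (GRCh37). The study's methods add trimming and removal of reads on GL contigs. How strand and reads with several matches were handled, and the release of Ensembl, are not given in the sources used here. The labels name a total RNA kit, while the methods name a stranded mRNA kit. A total of 0 columns of values per sample were left out.

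Total counts were 10538284 (anti-GAA replicate 1), 17894953 (anti-GAA replicate 2), 15347298 (control replicate 1) and 15924742 (control replicate 2). Genes kept by filterByExpr (15116) were scaled by TMM and tested in R 4.3.3 with edgeR 4.0.16 (glmQLFit and glmQLFTest, condition only), with Benjamini-Hochberg adjustment over all tested genes and a threshold of 0.05. CPM are counts scaled to 1e6 of the TMM-adjusted library size. The common dispersion was 0.0549. DESeq2 1.42.0 and the other alternatives stand in the closing section. The fits were also run on simulated counts drawn without a difference between replicates and with the dispersion of a fit with the replicate number as a block. This run does not test how the main fit behaves with the difference between replicates seen here. Symbols, transcripts and gene positions came from GENCODE 44 on GRCh38 by Ensembl identifier (52181 of 63677 rows matched), and no position was carried over from hg19. Tables were joined in Python 3.11.15. The canonical transcript was used for levels per kb, a choice made after the lengths were seen.

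The subunit genes and lists were chosen with earlier results of these data known. Named are the lowest and highest gene of each complex with a mean of at least 1 CPM, the 5 with the smallest p, those passing an adjusted p of 0.05 in any of 3 fits, genes listed by role, and untested genes. One gene listed by role is not reported here. Others (such as NDUFB3, NDUFA10, ATP5ME, ATP5MJ, UQCRH, UQCRHL, NDUFA9, NDUFB8, the genes with the highest or lowest levels, and all assembly factors and regulators) were chosen after their values were seen.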

Additional observations from a re-analysis of the deposited data

How the results depend on the processing

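Among all subunit genes the number called stayed 0 under DESeq2, DESeq2 size factors in edgeR, total-count scaling, length and GC offsets, a filter on a mean of 1 CPM or none, and with any 1 library left out. With the replicate number as a block 1 was called higher, ATP5MC2 (log2 fold change 0.64, adjusted p = 0.035 by edgeR, 0.337% of all genes called higher and 1.37% lower), and with the replicate block and length and GC offsets 2 were, ATP5MC2 (0.60, adjusted p = 0.034) and COX8A (0.62, adjusted p = 0.038), where 0.8% of all genes were called higher. Libraries of the same replicate number share a number in their titles, but the labels do not say what it marks and there are only 2 pairs. The main fit therefore did not take the replicate numbers to pair the libraries. The common dispersion was 0.0549 in the main fit and 0.0148 with the block. Deviations from the condition mean of libraries of the same number had r = 0.564 across 15116 genes. Under the block 1 assembly factor was called, FMC1, higher with the anti-GAA ASO (adjusted p = 0.039 by edgeR), against 0.337% of all genes called higher. With block and offsets 2 were called, against 0.8% of all genes called higher and 1.46% lower. Total-count scaling gave medians of 0.047 for all subunit genes, 0.047 for complex I, −0.031 for complex III, −0.019 for complex V and −0.023 for assembly factors, and it shifted the median of all genes to −0.081. The median of complex III was 0.15 with block and offsets, and that of assembly factors 0.13 with the offsets, with or without the block. Leaving out 1 library moved the median between 0.079 and 0.22 (all subunit genes), 0.038 and 0.28 (complex I), −0.044 and 0.17 (complex III), 0.12 and 0.29 (complex IV), 0.074 and 0.14 (complex V), and 0.0013 and 0.15 (assembly factors). Signs turned for ATP5MC3 (−0.029), COX7A2 (−0.014), NDUFS1 (−0.092) and SDHD (−0.067) with total-count scaling, for NDUFS1 without a filter (−0.0088) and with the minimum of 1 CPM (−0.0071), and for NDUFS3 with DESeq2 (0.0075), its size factors in edgeR (0.0073), the block (0.023) and block and offsets (0.013). With 1 library left out, the log2 fold change also changed sign for ATP5F1A (−0.22 to 0.092), ATP5IF1 (−0.33 to 0.13), ATP5MC1 (−0.21 to 0.77), COX4I1 (−0.20 to 0.47), COX7A2 (−0.26 to 0.51), COX7B (−1.85 to 1.68), NDUFS1 (−0.057 to 0.067), NDUFS3 (−0.36 to 0.46), SDHD (−0.025 to 0.076) and UQCRC1 (−0.25 to 0.17). For these changes the cause was not tested. An alternative chosen after seeing the data left out UQCRH, UQCRHL and the genes with the largest share of counts on pseudogene rows. The latter were NDUFV2, ATP5F1E, COX6A1, NDUFB1 and NDUFB4, while NDUFA4, next at 9.86%, stayed in. The median was then 0.13. Identity of the copies in sequence was not computed. With 2 libraries a condition, standard errors of about 0.19 or more on the log2 scale limit what can be detected, and mitochondrially encoded subunits were not measured.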
